A study of Sus scrofa with 10 samples.

Results

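Macrophage marker transcripts were followed through the livers of 10 female pigs. The 10 markers were the complement genes C1QA, C1QB and C1QC, the receptors CD163, CD14, CSF1R, MARCO and VSIG4, the lysosomal glycoprotein gene CD68 and the phagosomal metal transporter gene SLC11A1. A marker was read from the probe sets of the Affymetrix GeneChip Porcine whose annotation gives its symbol and no other symbol. Of the 10 markers, 7 had such a probe set, 12 probe sets in all, and 5 had a probe set with a mean log2 intensity of at least 4 over the 10 arrays. These 5, C1QA, C1QC, CD163, CD14 and VSIG4, are called the measured markers and belong to 4730 genes that passed the same limit. C1QA, C1QC and CD14 were each read from 1 probe set above the limit, and CD163 and VSIG4 from 2. C1QB, CD68 and CSF1R had no probe set under their symbol and are not analysed here.

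The animals were females of a backcross of Iberian pigs to Landrace, fed and managed alike. The study describes no drug or engineered allele in either group. The H group (high) holds 5 animals and the L group (low) holds 5 animals, from opposite ends of the first principal component of carcass traits and fatty acids of the longissimus muscle, where H lies towards more polyunsaturated fatty acids. Each animal gave 1 liver RNA extract and 1 array, so the animal is the replicate. The study placed full sibs and maternal half-sibs in opposite groups, and each group had fewer fathers than animals. Which animals were sibs is not stated, so the tests below do not model kinship. The comparison asks whether liver expression differed between animals that differed in the fatty acid composition of their muscle.

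Kupffer cells are the resident macrophages of the liver and line its sinusoids, where they take up bacteria, worn-out red cells and debris from portal blood. They capture opsonised particles through complement and Fc receptors, sense bacterial lipopolysaccharide through CD14 with TLR4 and LY96, and clear haemoglobin through CD163. In whole liver most RNA comes from hepatocytes, and macrophage transcripts serve as a readout of the macrophage compartment. In such a bulk extract, fewer macrophages and less RNA per macrophage cannot be told apart.

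The arrays themselves were alike in signal. The lowest value was 2.19 on every array, which is the common floor left by the background adjustment, and the highest lay between 15.86 and 16.00. The tissue label was borne out by hepatocyte markers, of which 10 of 12 listed were on the array and all 10 were measured, with ALB, the main plasma protein, at 15.53 ± 0.07 in H against 15.60 ± 0.05 in L (SD, n = 5 each). Neutrophil markers gave no measured gene of 5 on the array, and T and NK cell markers gave 1 of 8, CD8A. The 3' minus 5' difference of the GAPDH control probe sets, which grows as RNA degrades, was 1.96 ± 0.28 in H and 1.99 ± 0.42 in L on the log2 scale (n = 5 each, mean ± SD), with p = 0.897 in an exact two-sided permutation test.

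The measured markers showed no difference between H and L beyond the spread between animals. C1QA, C1QC, CD163 and VSIG4 had lower means in H and CD14 a higher one, and in each of the 5 genes the values of the groups overlapped. The markers did vary from liver to liver, and most pairs of them tended to vary together, though no pair passed the adjustment described below. The livers of H4, H1 and L1 were low in most markers and those of H3, L3 and L5 were high in most. Two-sided limma tests over all 4730 genes, with Benjamini-Hochberg adjustment, called 0 genes at an adjusted p under 0.05 (0% of genes), and the smallest adjusted p was 0.985. At an unadjusted p under 0.05 limma gave 125 genes (2.64%), 38 higher and 87 lower in H, and none of the 5 measured markers was among them. The groups did not overlap in 17 genes (0.359%), again none of them a marker. The plot of the markers by animal shows these values.

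**Figure D1:**
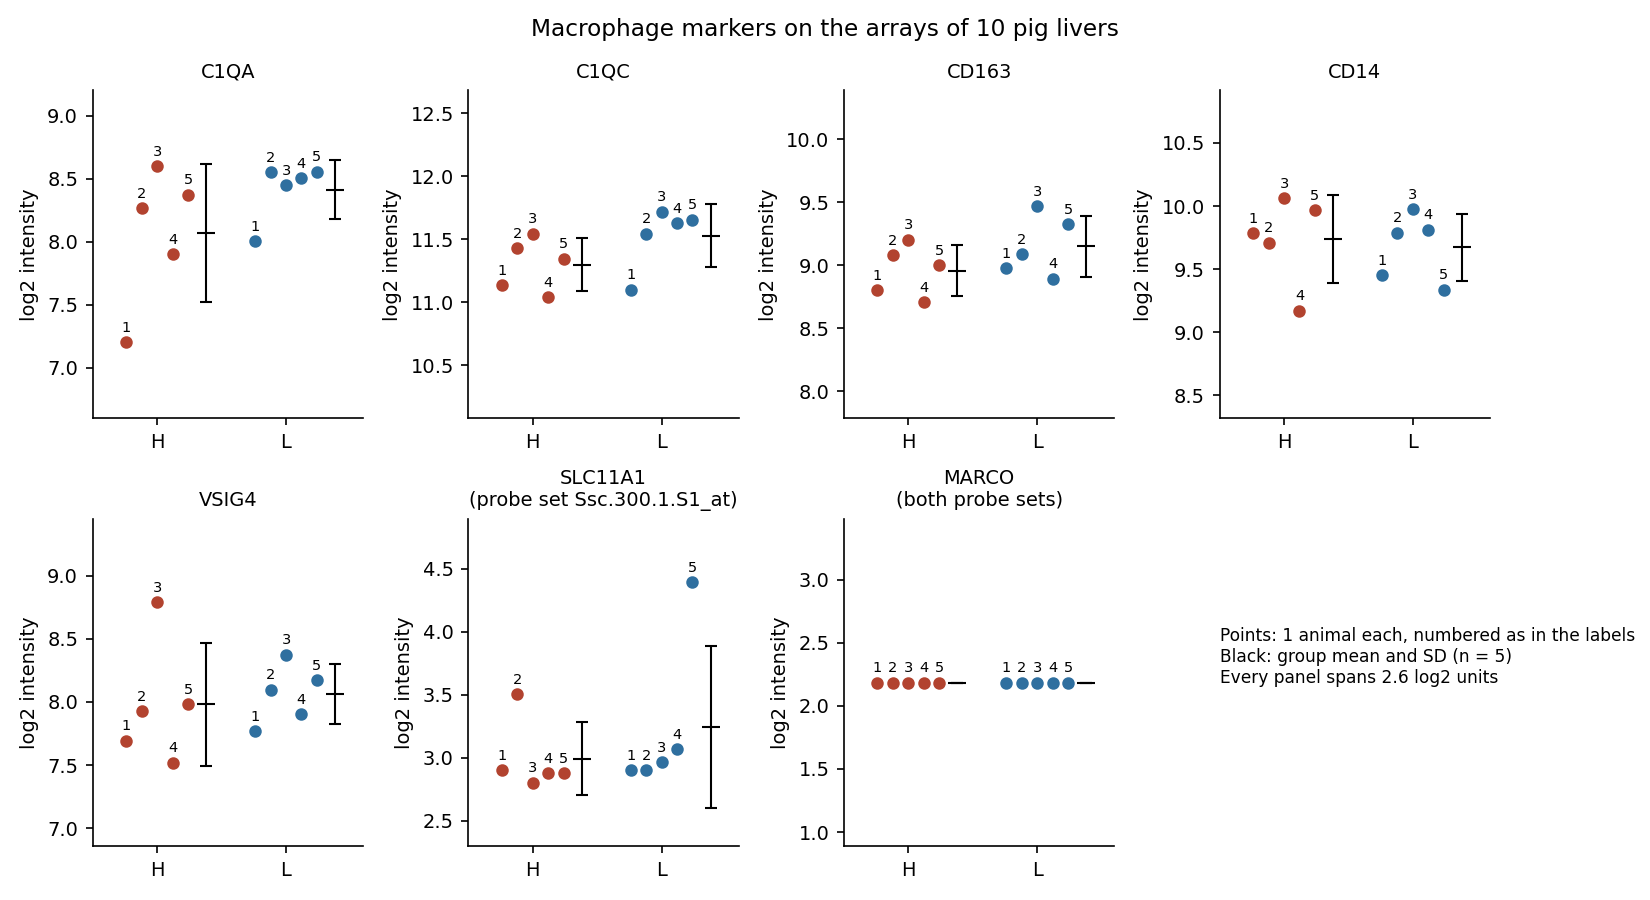
Log2 intensity of 7 macrophage markers (vertical axes, each spanning the same number of log2 units) in H (red, left) and L (blue, right) livers, with each point 1 animal, numbered as in the labels, and black bars the group mean and SD (n = 5). The H and L points overlap in every panel, and MARCO lies at the floor of 2.19 on all 10 arrays.

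C1QA and C1QC encode chains of C1q, the recognition molecule of the classical complement pathway, which in liver is made mainly by macrophages. In the RefSeq annotation of Sscrofa11.1 C1QA, C1QC and C1QB are neighbouring genes. C1QA had log2 intensities of 7.20, 8.27, 8.60, 7.90 and 8.37 in H1 to H5, against 8.0, 8.55, 8.45, 8.50 and 8.55 in L1 to L5. The lowest value of all was that of H1 and the highest that of H3, so the H animals spanned the L animals. The means were 8.07 ± 0.55 in H against 8.41 ± 0.23 in L (SD, n = 5 each), a log2 difference of -0.34 (SE 0.24, 95% interval -0.88 to 0.19). Limma gave an adjusted p of 0.985 and the exact two-sided permutation test p = 0.222. Without H1 the difference was -0.13. C1QA had the widest spread of the 5, with an SD over 10 animals above that of 87.6% of genes.

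C1QC had log2 intensities of 11.14, 11.43, 11.54, 11.04 and 11.35 in H1 to H5, against 11.10, 11.55, 11.72, 11.63 and 11.66 in L1 to L5. L2, L3, L4 and L5 lay above all H values, but L1 was among the lowest of the 10, beside H4 and H1. The means were 11.30 ± 0.21 in H against 11.53 ± 0.25 in L (SD, n = 5 each), a log2 difference of -0.23 (SE 0.14, 95% interval -0.54 to 0.08). Limma gave an adjusted p of 0.985 and the exact two-sided permutation test p = 0.151. Its spread over the animals was close to that of the middle gene, at the 57.8th percentile of SD.

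CD163, the scavenger receptor for haemoglobin bound to haptoglobin, had log2 values of 8.80, 9.08, 9.20, 8.71 and 9.0 in H1 to H5, against 8.98, 9.09, 9.47, 8.89 and 9.32 in L1 to L5. H4 was lowest and L3 highest. The means were 8.96 ± 0.20 in H against 9.15 ± 0.24 in L (SD, n = 5 each), a log2 difference of -0.19 (SE 0.14, 95% interval -0.49 to 0.11). Limma gave an adjusted p of 0.985 and the exact two-sided permutation test p = 0.214. Without L3 the difference was -0.11. Its 2 probe sets gave log2 differences of -0.14 and -0.25, and they correlated with each other at r = 0.420 over the 10 animals.

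VSIG4, a complement receptor of the immunoglobulin family that Kupffer cells use to capture particles coated with C3 fragments, had log2 values of 7.69, 7.93, 8.79, 7.52 and 7.98 in H1 to H5, against 7.77, 8.10, 8.37, 7.90 and 8.17 in L1 to L5. H3 stood highest of all 10 and H4 lowest, so both ends of the range were H animals. The means were 7.98 ± 0.49 in H against 8.06 ± 0.24 in L (SD, n = 5 each), a log2 difference of -0.08 (SE 0.22, 95% interval -0.57 to 0.41). Limma gave an adjusted p of 0.985 and the exact two-sided permutation test p = 0.770. The difference was 0.036 without H4 and -0.28 without H3. Its 2 probe sets in the gene value gave log2 differences of opposite sign, -0.20 (SE 0.17) and 0.04 (SE 0.30), and correlated at r = 0.690. A further VSIG4 probe set lay at 3.48 on 9 arrays and at 3.71 in H5, and was not used in the gene value.

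CD14, the receptor that hands lipopolysaccharide to TLR4 and that in humans is also made by hepatocytes, had log2 values of 9.78, 9.71, 10.06, 9.17 and 9.97 in H1 to H5, against 9.45, 9.79, 9.97, 9.81 and 9.34 in L1 to L5. H4 was lowest and H3 highest, as in VSIG4. The means were 9.74 ± 0.35 in H against 9.67 ± 0.27 in L (SD, n = 5 each), a log2 difference of 0.07 (SE 0.18, 95% interval -0.34 to 0.47). Limma gave an adjusted p of 0.985 and the exact two-sided permutation test p = 0.794. Its sign turned to -0.01 without H3 and to -0.02 without L5. Another CD14 probe set, between 3.33 and 4.44 over the 10 arrays, did not reach the limit for the gene value.

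SLC11A1, which pumps divalent metals out of the phagosome of macrophages, stayed below the limit with a mean of 3.12 and was not among the genes fitted. Its log2 values were 2.90, 3.51, 2.80, 2.88 and 2.88 in H1 to H5, against 2.90, 2.90, 2.97, 3.07 and 4.39 in L1 to L5. All but H2 and L5 lay close together at the dim end of the scale. The means were 2.99 ± 0.29 in H against 3.25 ± 0.64 in L (SD, n = 5 each), with p = 0.468 in the exact two-sided permutation test. SLC11A1 is on a list of genes that the study chose from sequencing of the same livers, so its value here is no independent evidence. Both probe sets of MARCO, a class A scavenger receptor of tissue macrophages, lay exactly at the floor in all 10 livers, so the arrays give no level for it.

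Over the 5 measured markers the median log2 difference was -0.19, against -0.04 over all 4730 genes, and 4 of 5 lay below 0, against 62.8% of all genes. Without L3 the median of the markers was -0.11. These are descriptions of the list and not tests of it. The widest of the 5 intervals, that of C1QA, reached -0.88, so changes of that size are not excluded by arrays of 5 animals a group. The plot of differences sets the markers beside the other macrophage genes.

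**Figure D2:**
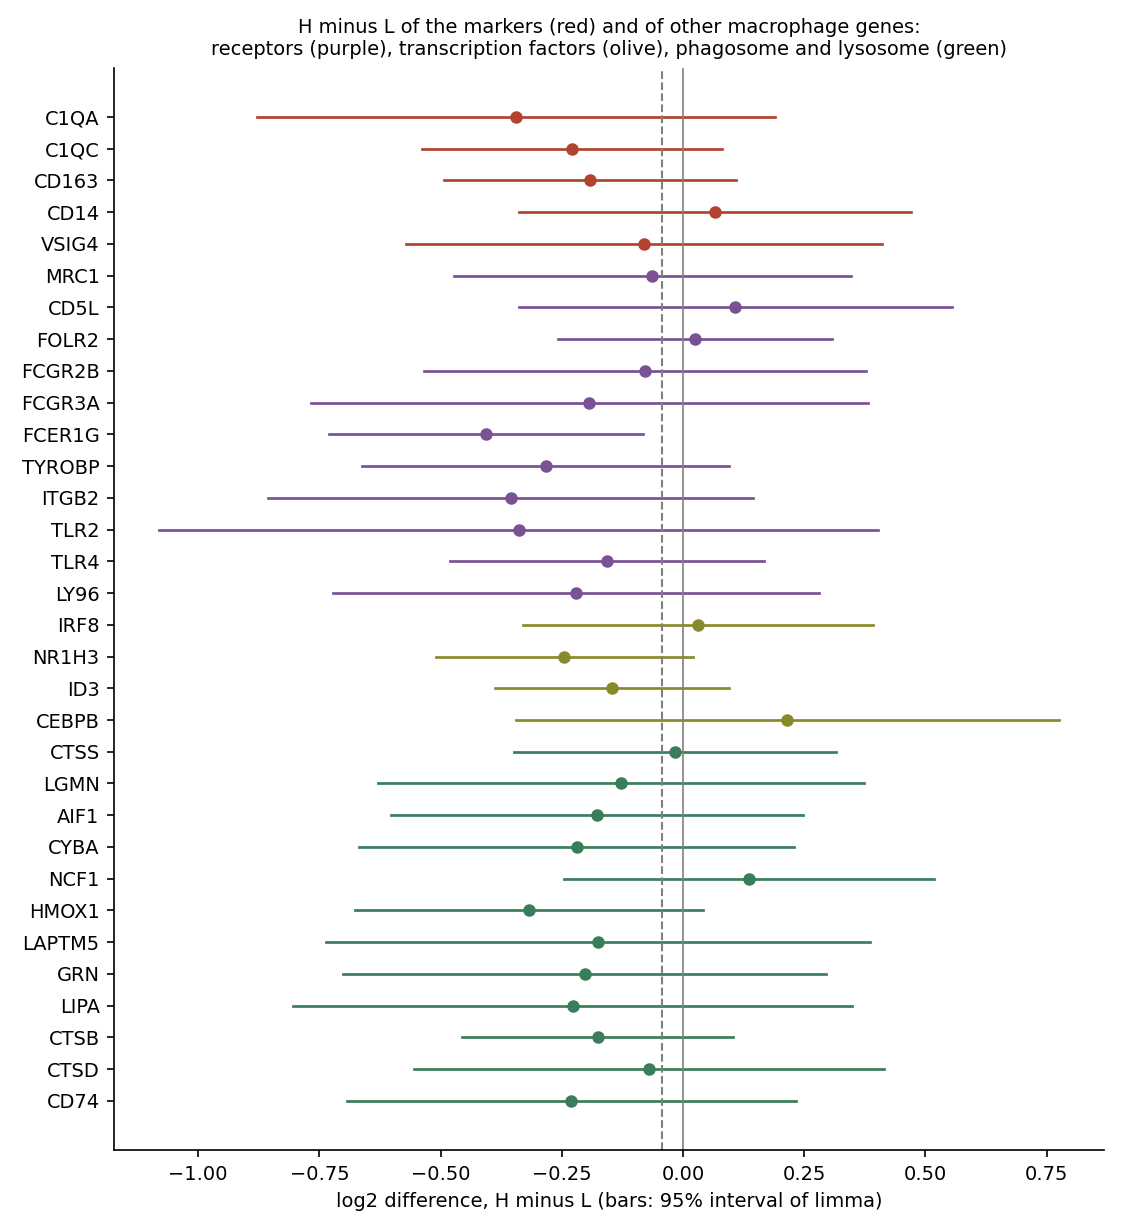
Log2 difference, H minus L (horizontal axis), of the 5 measured markers (red), other macrophage receptors (purple), transcription factors (olive) and phagosome and lysosome genes (green), with 95% limma intervals as bars. The solid line is 0 and the dashed line the median of all genes, -0.04. All 5 marker intervals cross 0, and that of FCER1G, from -0.73 to -0.08, does not.

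Most pairs of markers tended to move together over the animals, though none passed the adjustment described below. The 10 pairs of measured markers had a median Pearson correlation of 0.653 over the 10 livers, from 0.273 to 0.791, against a median of 0.03 over all 11169901 pairs of genes. A correlation of at least 0.5 was reached by 7 of the 10 marker pairs and by 11% of all pairs. With values centred on the mean of each group the median was 0.667, so the co-variation was present within the groups. With SLC11A1 and the dim probe sets added by a limit of 3, the median was 0.386.

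**Figure D3:**
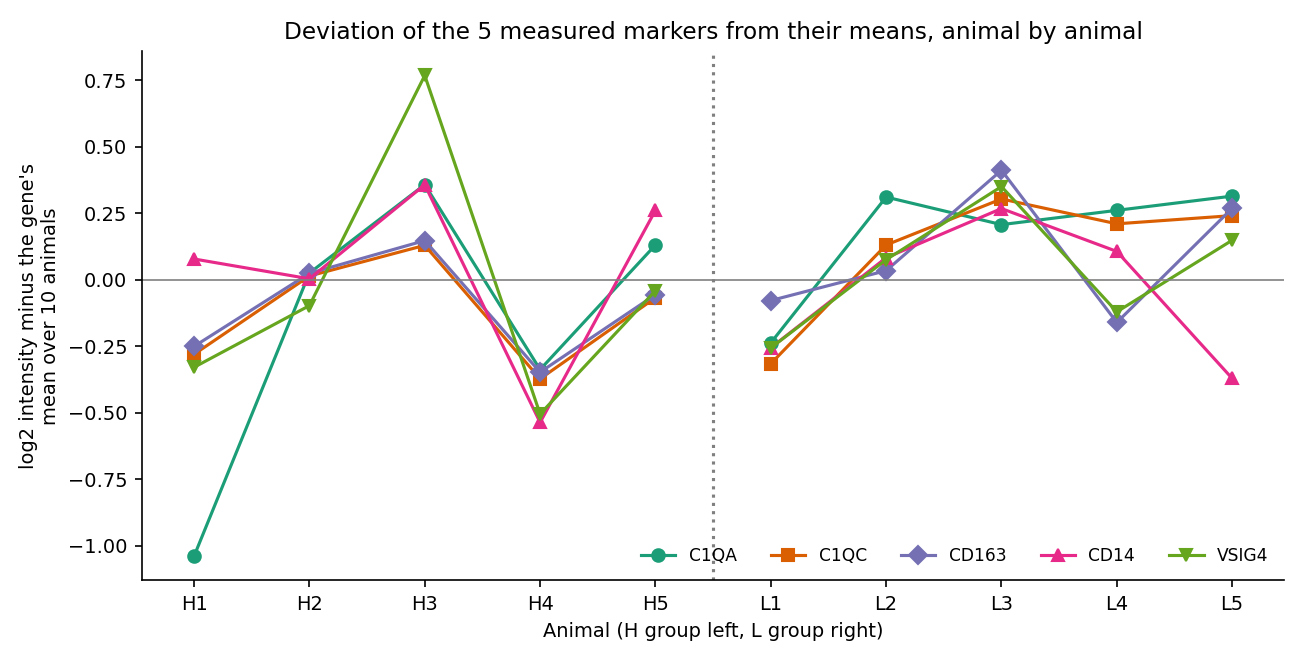
Deviation of each measured marker from its own mean over 10 animals (vertical axis, log2 units) in H1 to H5 (left) and L1 to L5 (right). All 5 lines lie below 0 at H4 and L1 and above 0 at H3, L2 and L3, while C1QA drops furthest at H1 and CD14 departs from the others at L5.

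The livers could be ordered by these markers. H4 was among the 3 lowest animals in 5 of 5 markers, and H1 and L1 were so in 4 of 5. H3, L3 and L5 were among the 3 highest in 4 of 5. L2, L3 and H3 lay above the mean of every marker, and H4 and L1 below the mean of every marker. The low and the high livers came from both groups. The mean profile, which is each marker scaled to its own SD and averaged over the 5, was -1.05, 0.00, 1.06, -1.40 and 0.11 SD in H1 to H5, against -0.74, 0.38, 1.07, 0.16 and 0.40 SD in L1 to L5.

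Among the pairs, C1QC and CD163 correlated at r = 0.791 (rho = 0.782) and C1QA and C1QC, chains of the same protein, at r = 0.789 (rho = 0.745). Permutation tests gave p = 0.00638 for C1QC with CD163 by r and p = 0.0103 by rho, and p = 0.00318 and p = 0.0180 for C1QA with C1QC. CD163 and VSIG4 correlated at r = 0.785 (permutation p = 0.00703) and kept almost the same order of animals, with rho = 0.939 (permutation p = 0.00026). Between single probe sets r was lower, from 0.602 to 0.783 for CD163 with VSIG4, and 0.544 and 0.750 for CD163 with C1QC. C1QC and VSIG4 correlated at r = 0.726 (permutation p = 0.0142, rho = 0.758, permutation p = 0.0152). Leaving out the 2 most extreme animals, by distance from the median of the gene named first, gave r = 0.749, 0.852, 0.703 and 0.566 for these 4 pairs, in the order given.

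C1QA and VSIG4 correlated at r = 0.667 (permutation p = 0.0440, rho = 0.855, permutation p = 0.00289), and at 0.658 without H1 and H4. C1QA and CD163 correlated at r = 0.640 (permutation p = 0.0453, rho = 0.733, permutation p = 0.0206), and at 0.384 without H1 and H4, so that r rested in part on those animals. The lowest values of r among the 10 pairs were those of CD14. Its r was 0.627 with VSIG4 (permutation p = 0.0512, rho = 0.636, permutation p = 0.0547 and r = 0.731 without H4 and L5), 0.476 with C1QC (permutation p = 0.165, rho = 0.455, permutation p = 0.191), 0.360 with CD163 (permutation p = 0.307, rho = 0.430, permutation p = 0.217) and 0.273 with C1QA (permutation p = 0.460, rho = 0.467, permutation p = 0.177). Without H1 and H4 the r of CD14 with C1QA was 0.386. Without H4 and L1 its r with C1QC was -0.118, and without H4 and L3 its r with CD163 was -0.259, so these 2 relations rested on the animals left out.

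Each marker was set against every other gene, 23620 pairs in all. After Benjamini-Hochberg adjustment over these pairs 0 had an adjusted p under 0.05 (0%) by r or by rho, the smallest adjusted permutation p by r being 0.236, that of VSIG4 with FCGR3A. At an unadjusted permutation p under 0.05 there were 1257 pairs by r (5.32%), and 6 of the 10 marker pairs. Adjusted permutation p-values of the marker pairs by r were 0.675 or higher. C1QC had r of at least 0.5 with 13.2% of other genes, CD163 with 12.4%, C1QA with 10.5%, VSIG4 with 8.89% and CD14 with 5.54%.

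As a yardstick, probe sets that read the same gene had a median r of 0.471 over 1693 pairs, while the 19 pairs of marker probe sets from different genes had a median r of 0.607. The probe sets of one gene share a transcript but not their brightness or their position along it, and none of these pairs is independent of the others.

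RNA quality was set beside the profile. The GAPDH 3' minus 5' difference was 2.08, 2.39, 1.70, 1.86 and 1.76 in H1 to H5, against 2.70, 1.68, 1.72, 1.86 and 1.98 in L1 to L5. It was highest in L1 and H2. Its correlation with the 5 markers ran from r = -0.497 (C1QC, permutation p = 0.141) to r = -0.224 (CD163, permutation p = 0.537), and from rho = -0.685 (CD14, permutation p = 0.0356) to rho = -0.430 (CD163, permutation p = 0.218), unadjusted. Without H2 and L1 the r ran from -0.702 for C1QA to -0.391 for CD163. With this difference regressed out of every gene, L1 and H2 included, the median r of the marker pairs was 0.604. In that setting 7 of 10 pairs had r of at least 0.5. The part of RNA quality in the co-variation was not tested.

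The genes most like the markers were ranked by r with the mean profile over the 10 livers, which is a choice by likeness and carries no test. Of 4722 other genes, 511 (10.8%) had r of at least 0.5, and the median was 0.105. The top gene was FCGR3A, an Fc receptor of macrophages and natural killer cells, at r = 0.946. Its log2 values were 9.27, 9.42, 10.28, 9.03 and 9.84 in H1 to H5, against 9.23, 9.84, 10.28, 9.49 and 9.95 in L1 to L5. H4, L1 and H1 were again lowest and H3 and L3 highest.

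Next came MAD2L2 (r = 0.907), ITM2B (0.907), the glycolytic enzyme gene PGK1 (0.907), GMFG (0.899), VAV1 (0.896), TLR4 (0.890), CFP (0.889), CORO1A (0.883) and CD53 (0.861). Several of these belong to blood and immune cells: VAV1 is an exchange factor of haematopoietic signalling, TLR4 the signalling receptor for lipopolysaccharide, CFP encodes properdin of the alternative complement pathway, CORO1A a leukocyte actin regulator, CD53 a leukocyte tetraspanin, and GMFG an actin regulator enriched in haematopoietic cells. MAD2L2, ITM2B and PGK1 are expressed in many cell types. At the other end were USP24 (r = -0.881), MRPS35 (-0.850), KMT5B (-0.846), FRS2 (-0.842) and DNAJA1 (-0.831), which are broadly expressed genes of protein turnover, mitochondrial translation, histone methylation, receptor signalling and protein folding. None of these 15 genes passed the test between H and L (limma adjusted p = 0.985 for each).

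**Figure D4:**
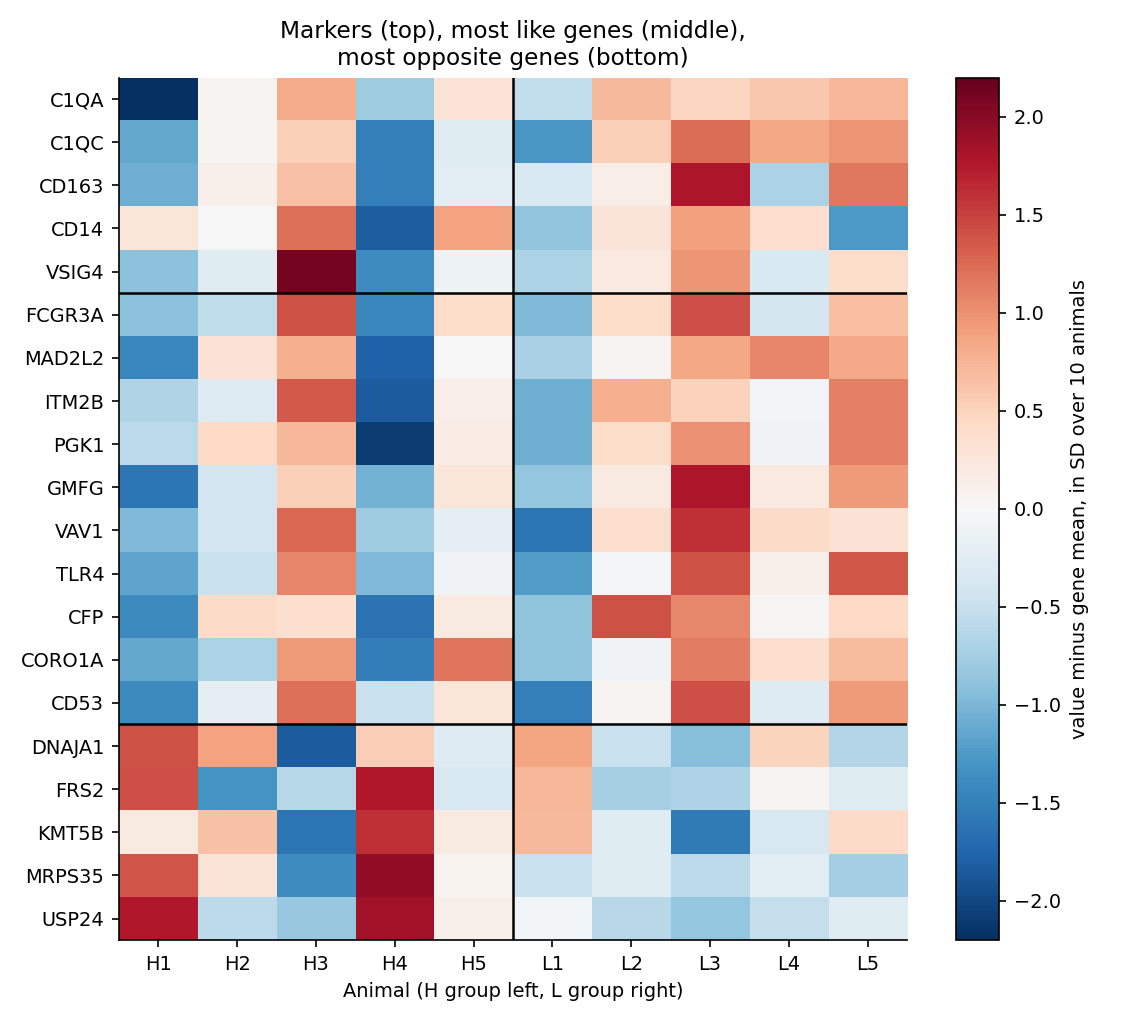
Values of the 5 measured markers (top), the 10 most like genes (middle) and the 5 most opposite genes (bottom) in H1 to H5 (left) and L1 to L5 (right), each in SD from the gene's mean over 10 animals (colour). In the top and middle blocks H1, H4 and L1 are below the gene's mean, except H1 in CD14, and H3 and L3 are above it. The bottom block, chosen for the opposite pattern, runs the other way, except L1 in USP24 and MRPS35.

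Other macrophage genes were taken from lists, which were chosen with earlier results of these data known. Which cells of these livers express the listed genes was not tested, and some may not be confined to macrophages. Of 25 other macrophage receptors 16 were on the array and 11 measured, and 7 of the 11 had r of at least 0.5 with the marker profile, with a median of 0.59, against 10.8% and a median of 0.105 over all genes. Besides FCGR3A and TLR4 these were TYROBP (0.80) and FCER1G (0.65), the adaptors of activating immune receptors, the integrin chain ITGB2 (0.71), LY96 (0.59) and the inhibitory Fc receptor FCGR2B (0.53). The mannose receptor MRC1 (0.19), TLR2 (0.20), the macrophage-secreted CD5L (0.08) and the folate receptor FOLR2 (-0.28) did not reach it. SIGLEC1, FCGR1A, ITGAM, CCR2 and CD86 were on the array but had no probe set at the limit.

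CD5L and FOLR2 are genes of resident liver macrophages, and their order of animals was another one. CD5L had log2 values of 11.70, 11.57, 12.05, 11.66 and 12.06 in H1 to H5, against 11.95, 12.20, 11.52, 11.07 and 11.76 in L1 to L5. FOLR2 had 13.02, 12.95, 12.67, 12.70 and 13.11 in H1 to H5, against 12.98, 13.11, 12.56, 12.76 and 12.92 in L1 to L5. L3, among the highest livers in 4 of the 5 markers, had the lowest FOLR2 value, and L4 the lowest CD5L value. With the single markers, CD5L correlated between r = -0.206 (C1QC, permutation p = 0.578) and r = 0.260 (VSIG4, permutation p = 0.460), and FOLR2 between r = -0.360 (VSIG4, permutation p = 0.314) and r = -0.036 (CD14, permutation p = 0.919). Whether these differ from the correlations of the other receptors was not tested. The CD5L value averages 2 probe sets, whose agreement was not examined.

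CD14 was set beside the other genes of lipopolysaccharide sensing. Of these, TLR4 was dim, with a mean of 5.05 from 3 of its 5 probe sets, the brightest at 6.10. Agreement between its probe sets was not examined. TLR4 correlated with C1QC at r = 0.890 (permutation p = 0.00131, rho = 0.915) and with CD14 at r = 0.369 (permutation p = 0.295, rho = 0.515). Its r was 0.746 with C1QA, 0.859 with CD163 and 0.833 with VSIG4. LY96, which binds lipopolysaccharide on TLR4, correlated with CD163 at r = 0.832 (permutation p = 0.00306, rho = 0.879), C1QC at 0.615 (permutation p = 0.0571, rho = 0.636), VSIG4 at 0.518 (permutation p = 0.124, rho = 0.818), C1QA at 0.359 (permutation p = 0.292, rho = 0.552) and CD14 at 0.147 (permutation p = 0.705, rho = 0.333). LBP, the plasma protein that delivers lipopolysaccharide to CD14 and is made by hepatocytes, correlated with CD14 at r = 0.072 (permutation p = 0.845, rho = 0.103). None of these pairs passed the adjustment over 23620 pairs, and the difference between the correlations was not tested.

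Of 7 macrophage transcription factor genes 5 were on the array and 4 measured. ID3 (r = 0.82 with the profile), IRF8 (0.66) and the liver X receptor gene NR1H3 (0.65) reached 0.5 and CEBPB (0.23) did not. Without H4 only 1 of the 4 reached it. Of 16 phagosome and lysosome genes 13 were on the array and 12 measured, and 7 of 12 reached 0.5: LAPTM5 (0.83), AIF1 (0.79), the oxidase subunit genes CYBA (0.77) and NCF1 (0.58), the protease gene CTSS (0.73), GRN (0.71) and CD74 (0.56). LIPA, the lysosomal acid lipase gene, stood at -0.03. Of 6 growth and recruiting ligands 5 were on the array and 2 measured, CCL2 (0.54) and LBP (0.13).

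**Figure D5:**
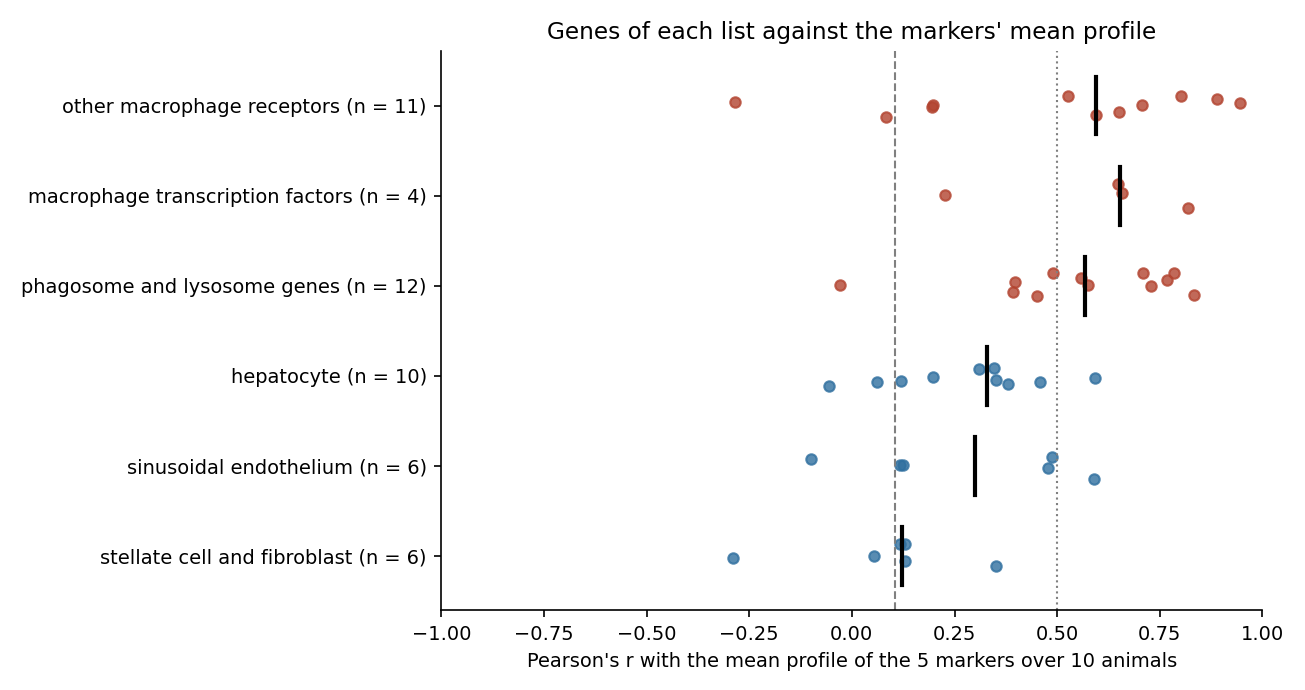
Pearson correlation of each listed gene with the mean profile of the 5 measured markers over 10 animals (horizontal axis), by list, with each point 1 gene and black bars the list medians. The dashed line is the median of all genes, 0.105, and the dotted line is 0.5. Medians are 0.59, 0.65 and 0.57 for the macrophage lists (red) and 0.33, 0.30 and 0.12 for hepatocyte, endothelial and stellate markers (blue). NCF1, EGFL7, RAMP2 and COL1A2 repeat a value on several arrays.

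Of the markers of other liver cells, 1 of 10 hepatocyte genes, 1 of 6 of sinusoidal endothelium and 0 of 6 of stellate cells and fibroblasts had r of at least 0.5, against 10.8% of all genes, and the differences between lists were not tested. These counts moved with single animals, to 3 hepatocyte genes without H3, and to 0 endothelial genes without H4 or 3 without H1. Some listed genes repeated a value on several arrays, where they cannot follow a profile. They were EGFL7 (4.06 in H3, H5 and L1), RAMP2 (7.36 in H3, L1, L2 and L4) and COL1A2 (6.17 in H1, H5, L1 and L5). Among the phagosome genes that reached 0.5, NCF1 did so too (5.93 in H1, H4 and H5). The effect on the counts was not tested. With the GAPDH difference regressed out, 4 hepatocyte genes and 5 of the 11 receptors reached 0.5. So did 4 transcription factor genes, 8 phagosome and lysosome genes and 14.4% of all genes, while the endothelial and stellate counts stayed at 1 and 0. The summed intensity of the list on the linear scale ran from 300453 to 339194 in H and from 319973 to 343249 in L for hepatocytes, from 1143 to 1886 in H and from 1107 to 1972 in L for endothelium, and from 2145 to 3040 in H and from 1779 to 3454 in L for stellate cells. That of the 5 measured markers ran from 3526 to 5477 in H and from 3873 to 5766 in L. The 2 brightest genes of each list had r with the profile of 0.35 (ALB) and 0.46 (HP) for hepatocytes, 0.12 (TEK) and 0.59 (CDH5) for endothelium, and 0.13 (ACTA2) and 0.35 (PDGFRB) for stellate cells. CD8A, JCHAIN, EPCAM and HBB, the single measured genes of the T and NK cell, B and plasma cell, cholangiocyte and erythroid lists, had r of 0.56, 0.35, 0.28 and -0.22. CD3D, CD3E and CD3G, which define T cells, had highest probe set means of 2.47, 2.22 and 2.19. With the mean of the hepatocyte genes subtracted on each array, the median r of the marker pairs was 0.594. The part of other immune cells in the profile was not tested.

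Between H and L, 9 of the 11 other receptors and 11 of the 12 phagosome and lysosome genes lay below 0, with median log2 differences of -0.19 and -0.18, and the 4 transcription factors had a median of -0.06. Of all genes 62.8% lay below 0, and so did 9 of the 10 hepatocyte genes and 6 of the 6 endothelial genes. Limma called 0 of them after adjustment. At an unadjusted p under 0.05 there was 1, FCER1G, the common gamma chain of Fc receptors. FCER1G had log2 values of 6.96, 7.25, 7.24, 6.94 and 7.58 in H1 to H5, against 7.40, 7.35, 7.74, 7.66 and 7.85 in L1 to L5. H1 to H4 lay below all L animals and H5 lay among the L animals. The log2 difference was -0.41 (SE 0.15, limma unadjusted p = 0.0187, adjusted p = 0.985, exact permutation test, two-sided, unadjusted p = 0.0397), and 125 genes of 4730 reached that level without adjustment.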

How the data were processed

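Liver RNA of 10 animals (5 H, 5 L) was hybridised to GeneChip Porcine arrays. The deposited values are log2 intensities that the authors made with GCOS and the GCRMA package, whose versions are not given in the sources used here. Of 24123 probe sets 124 are controls. GCRMA leaves dim probe sets at a floor, which was 2.19 for MARCO, so differences between dim genes are understated. Other probe sets repeated a higher value on several arrays, such as RAMP2 at 7.36 in H3, L1, L2 and L4. The limit of 4 does not remove such genes. The platform annotation named the probe sets, and a gene's value averages those whose mean reaches 4.

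The H against L test was limma (version 3.58.1, R 4.3.3), two-sided, with Benjamini-Hochberg adjustment over all genes and, for single genes, with exact permutation tests over 252 divisions of the animals, whose smallest p is 0.00794. Correlations used Python 3.11.15 with scipy 1.17.1 and permutation tests of 100000 resamples (exact for 8 animals). The scripts were tested on simulated data. The markers and the lists were chosen with earlier results of these data known. Every marker with a probe set, the 10 most like and the 5 most opposite genes, the receptor, factor and phagosome genes at an unadjusted p under 0.05 (at most 4 a list) and the 2 brightest genes of other lists are named by rule; other list genes were chosen after their values were seen. Alternatives were the limit on low values, the normalization, the handling of probe sets, array weights, covariates, the prior, another correlation and leaving out each animal. No coordinates or sequences are given. The number of arrays limits the precision.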

Additional observations from a re-analysis of the deposited data

Results flagged for a closer look

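Within each group of 5 the end animals were checked with Dixon's ratio, which sets the gap beside an end value against the whole range and has a limit of 0.71. Of 60 such groups, 7 were over the limit, and chance alone puts about 5% of groups over it. L1 lay apart below the other L animals in C1QA (8.0) and in C1QC (11.1). L1 also lay apart above the others of its group in the dim CD14 probe set (4.08), which is not part of the gene value. H3 lay apart above the other H animals in the dimmer of the VSIG4 probe sets that make up the gene value (7.43), and H5 in the VSIG4 probe set near 3.48 (3.71). SLC11A1 had an animal apart in each group, H2 at 3.51 and L5 at 4.39. L1 was also the animal with the highest GAPDH 3' minus 5' difference, 2.70, whose part in its values was not tested.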

How the results depend on the processing

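No gene was called between H and L at an adjusted p under 0.05 under any alternative run with adjustment; without adjustment 125 genes passed, and 90 (without L4) to 281 (without L2) when each animal was left out, with 213 without H2. The median log2 difference of the measured markers lay between -0.28 (without H3) and -0.11 (without L3). Signs turned for CD14 (-0.014 without H3 and -0.018 without L5; range -0.018 to 0.21 over animals left out) and for VSIG4 (0.036 without H4, range -0.28 to 0.036; 0.039 for the dimmer probe set alone), all of them inside the intervals of the full data. The difference of CD163 ranged from -0.26 to -0.11 (without L3) and that of C1QA from -0.48 to -0.13 (without H1). The r of CD14 turned to -0.118 with C1QC without H4 and L1, and to -0.259 with CD163 without H4 and L3. The median r of the marker pairs ranged from 0.620 (without H4) to 0.736 (without L5) and fell to 0.386 with no limit on low values, which adds SLC11A1 and also brings the dim CD14 and VSIG4 probe sets into those genes' values. Counts of genes with r of at least 0.5 with the marker profile were also taken with each animal left out. They ranged from 5 to 7 for receptors, 1 (without H4) to 3 for transcription factors and 6 to 9 for phagosome genes. For hepatocyte genes they ranged from 1 to 3 (without H3) and for endothelial genes from 0 (without H4) to 3 (without H1). The share of all genes ranged from 10.2% to 16.3% (without H4). With the GAPDH difference regressed out, 4 hepatocyte genes and 14.4% of all genes reached it. These list counts and the GAPDH regression were added after the data were seen. The deviations of animals with the same number had r of -0.24 to 0.28 over the 5 numbers. Which animals were sibs is not stated, so these values cannot show whether the numbers pair them. With the replicate number as a block, limma called 0 genes, 140 passed without adjustment and the median log2 difference of the markers was -0.19. Values at the floor limit what the arrays can show for MARCO, and low values do so for SLC11A1. Repeated values do so for RAMP2 and some other listed genes.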
